A study of Mus musculus with 9 samples.

Results

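A set of 10 regulators of energy metabolism was followed in mouse heart after treatment with oxaliplatin, a platinum drug used against cancer. They were the PGC-1 coactivators Ppargc1a and Ppargc1b, the muscle regulator Perm1, the oestrogen-related receptors (ERR) Esrra, Esrrb and Esrrg, the fatty acid receptors (PPAR) Ppara and Ppard, their partner Rxra, and the mitochondrial DNA factor Tfam. They were chosen by symbol from a table of normalized gene counts, in which 10 of 10 were measured among 13795 genes. RNA was sequenced from the heart tissue of C57BL/6 mice, in 4 samples given vehicle and 5 given oxaliplatin at 10 mg/kg, collected after 8 weeks of treatment, and RNA of integrity above 8 was used. The sources used here do not give age, sex, the vehicle, or the route and number of doses. No transgene or other allele is named, and strain, tissue and storage were shared by both groups.

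PGC-1 coactivators have no DNA-binding domain of their own. They dock on nuclear receptors such as ERR and PPAR, and on the factors NRF-1 and GABP (NRF-2), and recruit the enzymes that open chromatin. PPAR-alpha binds DNA together with RXR and drives genes of fatty acid oxidation. ERR factors drive genes of the tricarboxylic acid cycle, respiratory chain and contraction. TFAM packages mitochondrial DNA and helps start its transcription. Adult heart, which burns mainly fatty acids, is among the tissues richest in these regulators.

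The coactivators moved in opposite directions. Ppargc1a rose by 0.45 and Ppargc1b fell by 0.58 on the log2 scale in oxaliplatin samples, and neither showed any overlap between groups. The other 8 members did not pass the test. Of the members, 8 had negative log2 fold changes, with a median over the 10 of -0.17, against 7211 of all 13788 genes tested, with a median of -0.02. Tests were made with limma on log2(normalized count + 1), and a gene passed at a Benjamini-Hochberg adjusted p under 0.05 over all genes tested. Of all genes tested, 9.23% rose, 5.03% fell and 14.3% passed in either direction, and the groups did not overlap for 14.9%. The share of members called, 1 riser and 1 faller in 10 genes, lay near that background.

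**Figure D1:**
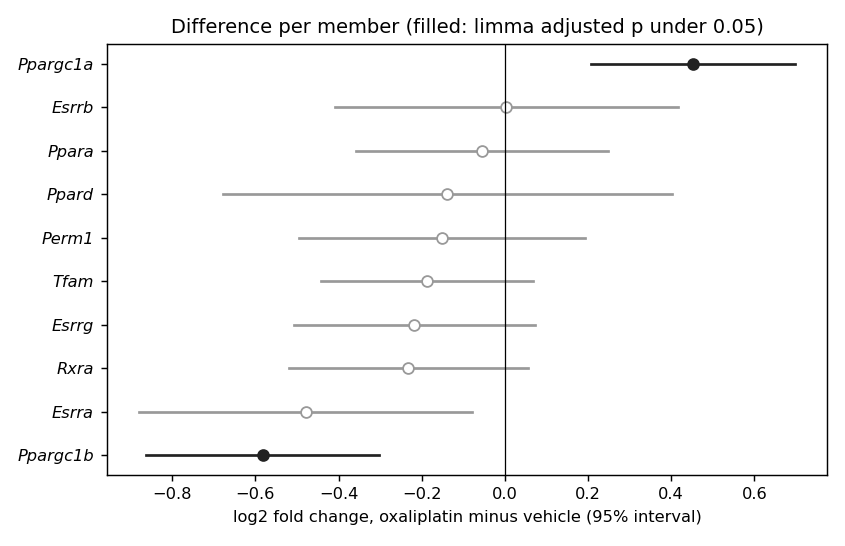
Log2 fold change of each member, oxaliplatin minus vehicle, with its 95% interval from limma; filled points passed the test. Ppargc1a (0.45) lies at the top, Ppargc1b (-0.58) at the bottom, and the intervals of the members between them include 0 except that of Esrra.

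Estimated depth was 28.5 M to 36.2 M reads per sample, of which 18.1% to 24.1% fell on genes of the mitochondrial genome. That share was 22.4%, 24.1%, 23.2% and 18.1% in vehicle samples 1 to 4. In oxaliplatin samples 1 to 5 it was 19.5%, 20.8%, 20.9%, 18.1% and 18.2%. All 12 cardiomyocyte markers were measured, and their summed level ran from 1630000 to 2020000 normalized counts in vehicle and from 1280000 to 1820000 in oxaliplatin samples. By atrial markers 3 samples stood apart, vehicle 1, oxaliplatin 2 and oxaliplatin 4, with sums over 8 of 8 markers of 392700 or more against 13490 to 122400 normalized counts in the other 6 samples. Erythroid markers (9 of 9 measured) summed to 227000 to 577000 in vehicle and 11600 to 363000 in oxaliplatin samples. Fibroblast markers (8 of 8) summed to 21000 to 31400 and 25000 to 69300, endothelial markers (8 of 8) to 15300 to 15800 and 17500 to 27300, and mesothelial markers (6 of 6) to 177 to 915 and 2530 to 5040. In whole tissue, fewer cells of a type and less RNA per cell cannot be told apart. Whether samples come from separate mice is not stated beyond their labels, so p-values cover the spread among the samples, part of which may be technical.

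Levels of different genes were compared per kilobase of exon, with lengths from GENCODE M21. In vehicle hearts Perm1 stood highest, at 2247 ± 116 normalized counts per kilobase (SD, n = 4). Ppargc1b followed at 470.5 ± 78.2, Ppargc1a at 426 ± 33.2 and Ppara at 371 ± 46.6, and among these 3 the sample ranges of neighbours overlapped, all below every value of Perm1. Tfam stood at 243 ± 25.3, below every value of Ppara, and overlapped with Esrra at 214 ± 62.3, which in turn overlapped with Rxra at 130 ± 20.9. The least abundant were Esrrg at 74.5 ± 9.37, Esrrb at 57.0 ± 13.7 and Ppard at 44.4 ± 14.5, where neighbours again overlapped and Esrrg lay below every value of Rxra. In oxaliplatin hearts Perm1 was again the most abundant, at 2068 ± 504 per kilobase (SD, n = 5). Ppargc1a came next at 585 ± 67.0, and its lowest sample, 497, lay above the highest of Ppara (442) and of Ppargc1b (354).

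Promoter sequences were found in RefSeq (GRCm38.p6) for 9 of the 10 members, in 14 windows, because some genes have several listed starts. The 250 bases before each start were searched on both strands for the letters AAGGTCA (the core bound by ERR), TCAAGGTCA (its longer form, which contains the core), AGGTCA repeated after 1 free base (the repeat bound by PPAR with RXR), GCGCA and GCGC around 1 free base (NRF-1), CCGGAAGT (GABP), TGACGTCA (the full cAMP response element) and TGACG (part of that element). Windows of 4 members with a single listed start are shown, because Ppargc1a was the member that rose, Perm1 the most abundant, and Tfam and Ppara hold letters of GABP and NRF-1. Capitals mark each match.
Ppargc1a: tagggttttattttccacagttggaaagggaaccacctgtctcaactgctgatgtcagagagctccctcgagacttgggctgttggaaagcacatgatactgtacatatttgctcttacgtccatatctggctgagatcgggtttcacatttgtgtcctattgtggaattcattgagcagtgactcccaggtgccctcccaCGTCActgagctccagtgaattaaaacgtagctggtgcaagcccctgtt
Perm1: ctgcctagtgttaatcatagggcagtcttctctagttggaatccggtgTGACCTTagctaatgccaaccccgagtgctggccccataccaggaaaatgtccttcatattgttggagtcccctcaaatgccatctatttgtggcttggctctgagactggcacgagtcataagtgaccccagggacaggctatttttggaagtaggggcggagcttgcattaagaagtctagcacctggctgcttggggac
Tfam: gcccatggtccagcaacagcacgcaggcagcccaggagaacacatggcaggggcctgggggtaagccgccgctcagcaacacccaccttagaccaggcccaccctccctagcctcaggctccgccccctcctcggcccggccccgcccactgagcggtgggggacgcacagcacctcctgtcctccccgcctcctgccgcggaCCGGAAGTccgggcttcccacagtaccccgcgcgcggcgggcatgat
Ppara: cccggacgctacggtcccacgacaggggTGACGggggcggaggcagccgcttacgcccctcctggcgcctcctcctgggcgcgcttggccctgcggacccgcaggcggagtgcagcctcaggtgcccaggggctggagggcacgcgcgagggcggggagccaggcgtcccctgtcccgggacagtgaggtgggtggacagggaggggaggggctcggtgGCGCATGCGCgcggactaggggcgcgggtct
The window of Ppargc1a lies at chr5:51567726-51567975 (minus strand), that of Perm1 at chr4:156215677-156215926 (plus strand), that of Tfam at chr10:71238045-71238294 (minus strand) and that of Ppara at chr15:85735526-85735775 (plus strand). In Ppargc1a the capitals are TGACG read on the other strand, 49 to 45 bases before the start, which 17.8% of all 32851 windows hold. In Perm1 they are the ERR core on the other strand, 202 to 196 bases before the start, held by 4.08% of windows. In Tfam they are the GABP letters, 47 to 40 bases before the start, held by 2.88% of windows. In Ppara they are TGACG and the NRF-1 letters, the latter 31 to 22 bases before the start and held by 3.74% of windows. Of the 14 member windows, the ERR core was in 2 (Perm1 and Rxra) and TGACG in 3 (Ppargc1a, Ppara and Esrrb). The longer ERR form, the PPAR repeat and the full cAMP element were in 0.387%, 0.0335% and 1.55% of all windows and in 0 of the 14 member windows. A match is a description of letters and says nothing of binding in these hearts. Ppargc1a has further promoters outside this window, and the table counts reads per gene, so their transcripts were not separated.

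Ppargc1a encodes PGC-1-alpha, the inducible coactivator of mitochondrial genes. In vehicle samples 1 to 4 it had 2622, 2956, 2917 and 2523 normalized counts. In oxaliplatin samples 1 to 5 it had 4353, 3540, 3210, 3823 and 3971. Every oxaliplatin sample lay above every vehicle sample, with oxaliplatin 1 highest and vehicle 4 lowest. The means were 2755 ± 214 and 3779 ± 433 (log2 fold change 0.45 with a standard error of 0.11, 95% interval 0.21 to 0.70, limma adjusted p = 0.0187). Ppargc1a did not pass without vehicle 1 (limma adjusted p = 0.0558), nor without the 3 samples of high atrial markers (0.0936), although its log2 fold changes of 0.43 and 0.45 were close to that over all samples. With the erythroid marker score as a covariate it was 0.35 (limma adjusted p = 0.234), in a fit where score and group are hard to separate (r = -0.69 across the 9 samples). With the cardiomyocyte marker score as a covariate the log2 fold change was 0.67 (limma adjusted p = 0.00798). That score is also hard to separate from group (r = -0.73). Over all 24 alternatives its adjusted p ran from 0.00141 to 0.234.

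Brown fat around the heart also makes PGC-1-alpha, so fat cell markers were read in the same samples. Ucp1, the uncoupling protein that defines brown fat, was at 651 normalized counts in oxaliplatin 2, at 1.75 in oxaliplatin 3 and listed at 0 in the other 7. Adipoq, the fat cell hormone adiponectin, reached 540 in oxaliplatin 2, and was between 3.59 and 96.7 in the other oxaliplatin samples and between 17.2 and 38.0 in vehicle samples. The 8 of 10 fat cell markers measured summed to 35400 to 57500 in vehicle and 45700 to 84900 in oxaliplatin samples. Fabp4 and Cox8b made up most of these sums, with vehicle means of 17215 and 27126 and oxaliplatin means of 34649 and 22009. Cox8b was high in vehicle samples, where Ucp1 was listed at 0, so the sums cannot be read as fat content. Without oxaliplatin 2 the log2 fold change of Ppargc1a was 0.47 (limma adjusted p = 0.0179). Oxaliplatin 1, with the highest Ppargc1a, had the highest sum (84900) and the highest Fabp4 (49631) and Cidea (2350) of all samples. That sum was mostly Fabp4 and Cox8b (32926). In the same sample Adipoq and the fat cell genes Cfd (26.3) and Plin1 (0) were the lowest of all samples. Its fat cell marker score, in which each gene counts alike, was also the lowest (-1.19, against 2.68 in oxaliplatin 2). The part of fat cells in the result was not tested.

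Ppargc1b encodes PGC-1-beta, a related coactivator that serves the same receptors. Vehicle samples 1 to 4 had 1438, 1639, 1828 and 2124 normalized counts. Oxaliplatin samples 1 to 5 had 980, 1121, 1215, 1193 and 1323. Here every oxaliplatin sample lay below every vehicle sample, and oxaliplatin 1, highest in Ppargc1a, was the lowest. The means were 1757 ± 292 and 1166 ± 127 (log2 fold change -0.58 with a standard error of 0.13, 95% interval -0.86 to -0.30, limma adjusted p = 0.0105). It passed without any single sample, with the highest adjusted p, 0.0395, without vehicle 3. It did not pass when samples were scaled to their total of nuclear genes (log2 fold change -0.49, limma adjusted p = 0.0619) or with the erythroid score as a covariate (-0.57, limma adjusted p = 0.0971), and over the 24 alternatives its adjusted p ran from 0.00611 to that value.

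Set against each other, the normalized counts of Ppargc1a and Ppargc1b gave a ratio of 1.82, 1.8, 1.6 and 1.19 in vehicle samples 1 to 4. In oxaliplatin samples 1 to 5 the ratio was 4.44, 3.16, 2.64, 3.2 and 3. The lowest oxaliplatin ratio was above the highest vehicle ratio. As a ratio within a sample it does not depend on how samples were scaled, and it has no test, because both genes were known to differ.

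**Figure D2:**
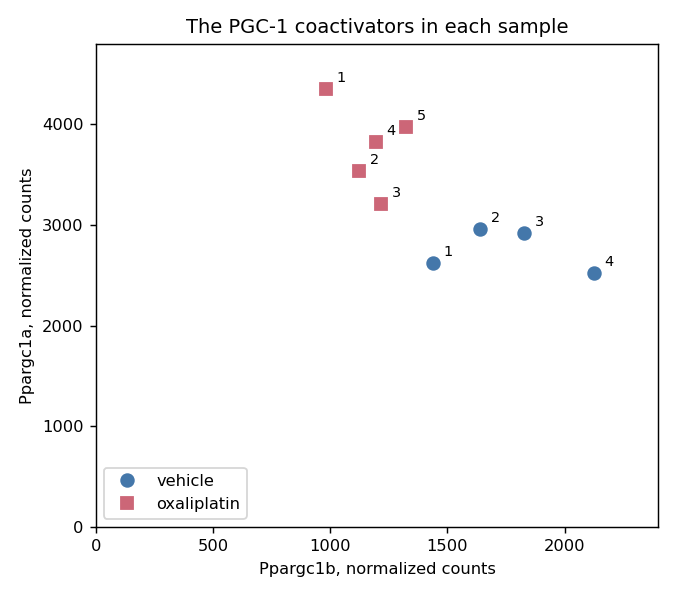
Normalized counts of Ppargc1a (y axis) and Ppargc1b (x axis) in each sample, with vehicle as circles, oxaliplatin as squares and numbers for replicates. The groups separate on both axes: the 5 oxaliplatin samples lie at 3210 or more of Ppargc1a and 1323 or less of Ppargc1b.

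Perm1, a striated muscle protein that PGC-1 and ERR induce and that promotes oxidative genes, did not pass. Vehicle samples 1 to 4 had 8089, 8981, 9003 and 8992 normalized counts. Oxaliplatin samples 1 to 5 had 10725, 6413, 7019, 6574 and 9602. Oxaliplatin samples thus fell on both sides of the vehicle range, with samples 1 and 5 above it and 2, 3 and 4 below it. The means were 8766 ± 452 and 8067 ± 1967 (log2 fold change -0.15, 95% interval -0.50 to 0.19, limma adjusted p = 0.570). The 3 oxaliplatin samples of low Perm1 were also the 3 samples of lowest summed cardiomyocyte markers, at 1367000, 1299000 and 1281000 normalized counts for samples 2, 3 and 4, against 1816000 in oxaliplatin 1 and 1626000 in oxaliplatin 5. With the cardiomyocyte score as a covariate the log2 fold change of Perm1 turned to 0.32 (limma adjusted p = 0.0962, the lowest of its 24 alternatives, which reached 0.994). The score and the group are correlated in these samples (r = -0.73 over 9), and the part of cardiomyocyte share or content in the result was not tested beyond this fit.

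**Figure D3:**
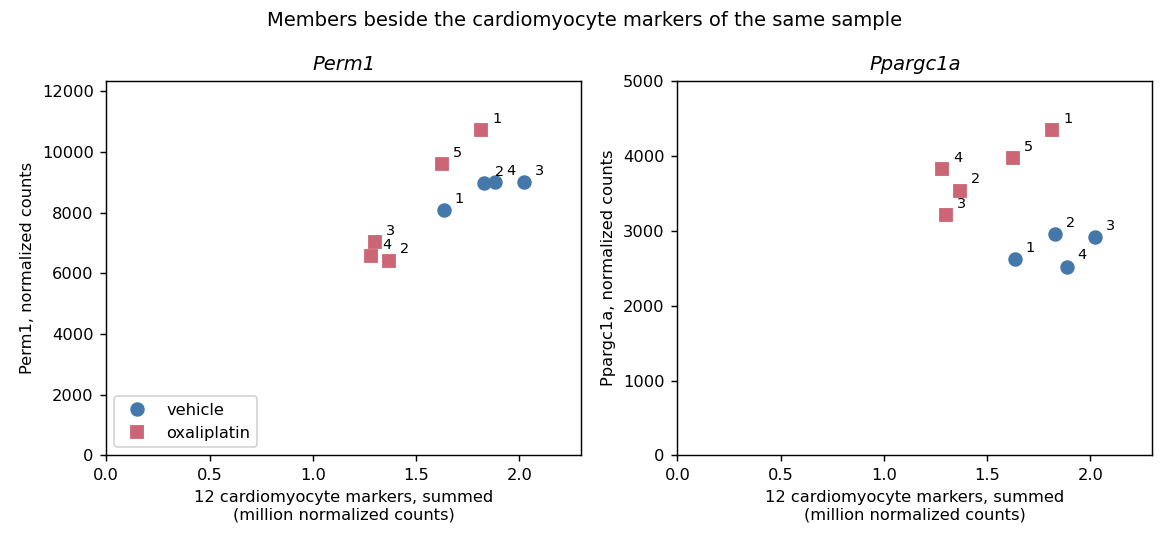
Perm1 (left) and Ppargc1a (right) in normalized counts against the sum of 12 cardiomyocyte markers in M normalized counts, per sample, with numbers for replicates. Oxaliplatin 2, 3 and 4 are lowest on the x axis and lowest in Perm1, while for Ppargc1a they lie above every vehicle sample.

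The oestrogen-related receptors are orphan nuclear receptors that need PGC-1 rather than a hormone for full activity. Esrra, the ERR-alpha gene, had 345, 395, 525 and 657 normalized counts in vehicle samples 1 to 4 and 350, 313, 309, 291 and 421 in oxaliplatin samples 1 to 5. In all, 3 oxaliplatin samples lay below the vehicle range and 2 within it. The means were 481 ± 140 and 337 ± 51.9 (log2 fold change -0.48, 95% interval -0.88 to -0.08, unadjusted p = 0.0226, limma adjusted p = 0.104). Vehicle samples alone spanned a wider range than the difference of the means. Without vehicle 1, Esrra passed (log2 fold change -0.62, limma adjusted p = 0.0489), and over the other alternatives its adjusted p reached 0.623. In GENCODE M21, 73 bases of its exons overlap Trmt112 on the other strand, and since no strand setting is given, reads there cannot be told apart.

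Esrrg, the ERR-gamma gene of oxidative muscle, had 476, 432, 436 and 349 normalized counts in vehicle samples 1 to 4 and 396, 417, 332, 319 and 354 in oxaliplatin samples 1 to 5. The ranges overlapped through vehicle 4, and the log2 fold change was -0.22 (95% interval -0.51 to 0.07, limma adjusted p = 0.308). Esrrb, the ERR-beta gene, best known from stem cells, had 222, 309, 343 and 407 in vehicle and 411, 259, 267, 304 and 352 in oxaliplatin samples. Its group means, 321 ± 77.1 and 319 ± 63.5, were nearly equal, with a 95% interval of the log2 fold change from -0.41 to 0.42 (limma adjusted p = 0.994). Changes within these bounds, in either direction, are not excluded by these samples. Esrra, at -0.48 with a similar standard error (0.185 against 0.191 for Esrrb), did not pass the adjusted threshold.

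The fatty acid receptors did not pass. Ppara, the PPAR-alpha gene and main fatty acid sensor of heart, had 1111, 1242, 1456 and 1437 normalized counts in vehicle samples 1 to 4. In oxaliplatin samples 1 to 5 it had 1437, 1016, 1164, 1167 and 1563. The ranges overlapped almost fully, with 1 oxaliplatin sample below and 1 above all vehicle samples (log2 fold change -0.06, 95% interval -0.36 to 0.25, limma adjusted p = 0.829). Ppard, the PPAR-delta gene, was the lowest member, with 95.6, 136, 140 and 210 in vehicle and 92.0, 99.5, 149, 176 and 137 in oxaliplatin samples (log2 fold change -0.14, 95% interval -0.68 to 0.40, limma adjusted p = 0.758). Its interval was the widest of the 10. Rxra, which pairs with both, had 569, 618, 660 and 816 in vehicle and 515, 632, 637, 489 and 550 in oxaliplatin samples. In all, 3 oxaliplatin samples lay below the vehicle range (log2 fold change -0.23, 95% interval -0.52 to 0.06, limma adjusted p = 0.272).

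Tfam, which coats mitochondrial DNA and starts its transcription, had 967, 1019, 1223 and 1050 normalized counts in vehicle samples 1 to 4. Oxaliplatin samples 1 to 5 had 1063, 887, 922, 787 and 1025. Oxaliplatin samples 2, 3 and 4 lay below the vehicle range, as for Perm1 (log2 fold change -0.19, 95% interval -0.44 to 0.07, limma adjusted p = 0.320). With the cardiomyocyte score as a covariate it was 0.08 (limma adjusted p = 0.715, the highest of its alternatives, whose lowest was 0.176).

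**Figure D4:**
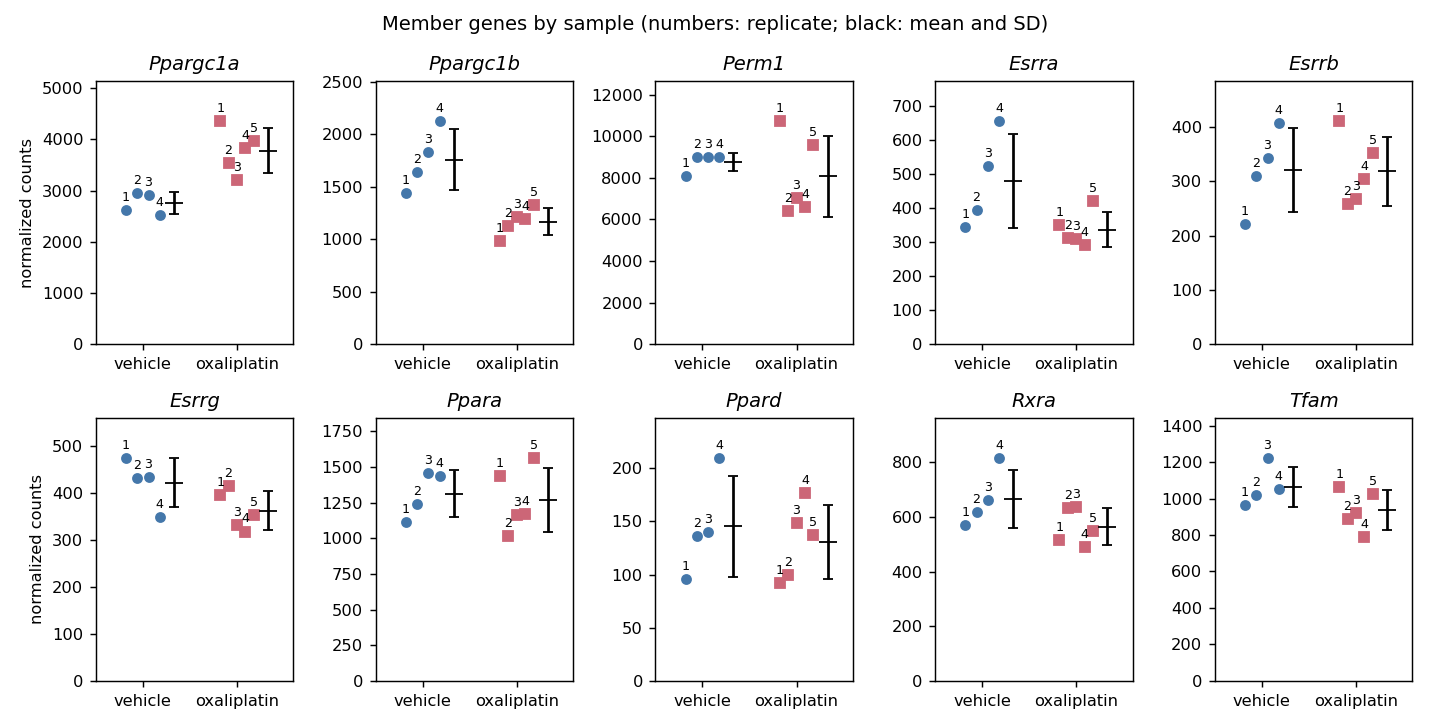
Normalized counts of the 10 members in each sample, vehicle as circles and oxaliplatin as squares, with replicate numbers and, in black, the mean and SD of each group (n = 4 and n = 5). The groups are apart for Ppargc1a and Ppargc1b and overlap for the other 8.

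Genes whose pattern over the 9 samples was most like that of a member were ranked by Pearson r of log2(normalized count + 1). For Ppargc1a they were Dnttip2 (r = 0.971), Acot9 (0.965) and Ino80c (0.964). For Ppargc1b they were Phf14 (r = 0.983), Lrpprc (0.977) and Ttc7b (0.973), and for Perm1 Trappc5 (r = 0.994), Atp5d (0.972) and Sccpdh (0.971). These are the highest of many correlations over few samples that share libraries and, for the PGC-1 genes, the group difference, and they are given as a description.

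Target genes of PPAR in heart were lower in many cases. The test called 14 of the 31 lower and 2 higher, and 15 did not pass. Of the 31, 23 had negative and 8 positive log2 fold changes, so the list did not move as 1 class. Over all genes tested, 5.03% were called lower and 9.23% higher. The median log2 fold change was -0.42, against -0.02 over all genes. The cardiomyocyte markers, 12 of 12 with negative log2 fold changes, had a median of -0.34. Their part in this list was not tested beyond a covariate fit. Cpt2, which rebuilds acyl-CoA inside mitochondria, had 10606, 11865, 11335 and 10441 normalized counts in vehicle samples and 6414, 7044, 6408, 5606 and 6946 in oxaliplatin samples. The groups were far apart (log2 fold change -0.77 ± 0.11 as standard error, limma adjusted p = 0.00111). On the log2 scale Vldlr, a receptor for triglyceride-rich lipoproteins, fell by 0.73, Ech1 of unsaturated fatty acid oxidation by 0.84 and Hadha of the trifunctional protein by 0.62. The risers, named after their values were seen, were the uncoupling protein Ucp2 (1.30, limma adjusted p = 0.00713) and Angptl4 (1.74, limma adjusted p = 0.0119), an inhibitor of lipoprotein lipase. With the cardiomyocyte score as a covariate Ucp2 was at 0.66 (limma adjusted p = 0.116), and with the erythroid score it did not pass either (0.0815); over its 24 alternatives the adjusted p ran from 0.000246 to 0.116. Angptl4 did not pass with the replicate block (limma adjusted p = 0.11) or the erythroid score (0.0513), in a range from 0.00087 to 0.11. Angptl4 had 157, 170, 145 and 66.6 normalized counts in vehicle and 510.2, 209, 340, 612 and 629.5 in oxaliplatin samples. Pdk4, also named after its values were seen, was higher but did not pass (log2 fold change 0.57, limma adjusted p = 0.108). It passed in 1 of 24 alternatives, without oxaliplatin 1 (0.70, limma adjusted p = 0.034). With 1 sample left out the number that fell ran from 7 to 17: 8 for vehicle 1, 7 for vehicle 2, 8 for vehicle 3, 8 for oxaliplatin 3, 8 for oxaliplatin 4, and 12 to 17 for the other 4 samples. Leaving out the 3 samples of high atrial markers gave 5. It was 5 with the cardiomyocyte score and 4 with the erythroid score as a covariate.

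Targets of ERR and PGC-1, mostly genes of the respiratory chain, the tricarboxylic acid cycle and calcium handling, had small differences. No gene was placed both here and in the PPAR list, although PGC-1 also docks on PPAR. Genes of fatty acid oxidation were placed with PPAR, so a contrast of these lists depends on that placement. The test called 1 of the 37 lower, 0 higher and 36 neither way. Of the 37, 32 were lower on average (median -0.19), and 7 (18.9%) had an unadjusted p under 0.05, a smaller share than the 28.8% of all genes tested. The one that fell was Atp2a2, the calcium pump of the sarcoplasmic reticulum, which had 93811 ± 24428 in vehicle and 57788 ± 9041 normalized counts in oxaliplatin samples (log2 fold change -0.68 ± 0.18 as standard error, limma adjusted p = 0.0273). Atp2a2 did not pass without vehicle 3 (limma adjusted p = 0.0865), vehicle 4 (0.0674) or oxaliplatin 5 (0.0602), after quantile normalization (0.164), scaled to nuclear genes (0.103) or with the erythroid score as a covariate (0.123), and over the 24 alternatives its adjusted p ran from 0.00946 to 0.164. The number of the list that fell was 0 without vehicle 3, 4 without oxaliplatin 1 and 0 without oxaliplatin 5. It was 12 under array weights per sample, 5 with the atrial score and 0 with the erythroid score as a covariate, and 4 genes of the list rose with the cardiomyocyte score as a covariate. In the same samples the cardiomyocyte markers, 12 of 12 with negative log2 fold changes, had a median of -0.34.

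A list of 20 genes, called the mitochondrial DNA machinery here, was drawn up around the copying and transcription of mitochondrial DNA, without Tfam. It also holds genes of other roles, among them Lrpprc, Slirp, Lonp1, Dnajc19 and Prmt1, so its counts are not of copying and transcription genes alone. In the list 19 of 20 genes had negative log2 fold changes, with a median of -0.26. Of the 20 genes 5 fell, 0 rose and 15 did not pass, where 5.03% of all genes tested fell. An unadjusted limma p under 0.05 was found for 35% of the list and 28.8% of all genes. Lrpprc, which stabilizes mitochondrial messenger RNA, had 1267, 1368, 1499 and 1978 normalized counts in vehicle and 899, 1013, 972, 992 and 1124 in oxaliplatin samples. The groups did not overlap (log2 fold change -0.59 ± 0.13 as standard error, limma adjusted p = 0.0103). The topoisomerase Top1mt fell by 0.53, the methyltransferase Tfb1m by 0.52, the helicase Twnk by 0.40 and the RNA polymerase Polrmt, named after its values were seen, by 0.43 on the log2 scale. With 1 sample left out, 1 to 5 fell: 2 for vehicle 1, 1 for vehicle 2, 1 for vehicle 3, 3 for vehicle 4, 1 for oxaliplatin 3, 1 for oxaliplatin 4, and 4 to 5 for the other 3 samples. None of the 5 passed with the cardiomyocyte score as a covariate, where Lrpprc was at -0.605 (limma adjusted p = 0.0528), Twnk at -0.16 (0.447) and Polrmt at -0.21 (0.44), nor with the erythroid score or when scaled to nuclear genes. Over the 24 alternatives the adjusted p of Lrpprc ran from 0.00458 to 0.0595, of Twnk from 0.00745 to 0.447 and of Polrmt from 0.0216 to 0.44. The cardiomyocyte markers moved with this list too (median log2 fold change -0.34), and their part in it was not tested beyond this fit.

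Among 20 other coregulators of the receptors, 1 fell, 0 rose and 19 did not pass (median -0.13), near the 5.03% of all genes tested that fell. An unadjusted limma p under 0.05 was found for 15% of the list, below the 28.8% of all genes. The gene of the list that fell was Cited2, a CBP-binding transcriptional modulator. It had 157, 176, 159 and 175 normalized counts in vehicle and 87.2, 76.7, 112, 98.3 and 76.3 in oxaliplatin samples (log2 fold change -0.90 ± 0.17 as standard error, limma adjusted p = 0.00521). Of its 24 alternatives, Cited2 failed the test in 1, which had the erythroid score as covariate (limma adjusted p = 0.12, where the others reached down to 0.0027). The corepressor Ncor1, the deacetylase Sirt1 and the third PGC-1 relative, Pprc1, had log2 fold changes of -0.38, -0.40 and -0.19 and did not pass (limma adjusted p = 0.123, 0.266 and 0.528).

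Of 27 other nuclear receptors and DNA-binding partners measured, 3 fell, 0 rose and 24 did not pass (median -0.17). Over all genes tested 5.03% fell. An unadjusted limma p under 0.05 was found for 29.6% of the list, near the 28.8% of all genes. The clock receptor Nr1d2 fell by 0.70, the mineralocorticoid receptor Nr3c2 by 0.86 and the glucocorticoid receptor Nr3c1 by 0.40 on the log2 scale, with limma adjusted p of 0.0311, 0.0494 and 0.0478. The number was 0 or 1 without any one of vehicle 1 to 4 or of oxaliplatin 1, 3, 4 and 5, 4 without oxaliplatin 2, and 0 when scaled to nuclear genes or with the erythroid score as a covariate. It was 5 with the atrial score and 6 with the cardiomyocyte score, while 1 gene of the list rose without oxaliplatin 1 and 1 without oxaliplatin 2. Nrf1 and Gabpa, the factors whose letters were searched in the promoters, had log2 fold changes of 0.11 and -0.15 and did not pass (limma adjusted p = 0.563 and 0.395).

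Of 25 genes for signals that act on PGC-1, 4 fell, 0 rose and 21 did not pass (median -0.17). Over all genes tested 5.03% fell. An unadjusted limma p under 0.05 was found for 32% of the list, near the 28.8% of all genes. Mapk14, the p38 kinase that phosphorylates PGC-1-alpha, had 860, 995, 996 and 1109 normalized counts in vehicle and 558, 794, 667, 635 and 675 in oxaliplatin samples (log2 fold change -0.58 ± 0.12 as standard error, limma adjusted p = 0.00818). Nampt, which makes NAD for sirtuins, fell by 0.45, the beta-adrenergic receptor Adrb1 by 1.17 and the calcium-dependent kinase Camk2g by 0.32. The AMP-activated kinase subunits Prkaa1 and Prkaa2 had log2 fold changes of 0.15 and -0.17 and did not pass (limma adjusted p = 0.560 and 0.318). With 1 sample left out, 1 to 6 fell: 2 for vehicle 1, 1 for vehicle 2, 2 for vehicle 3, 2 for vehicle 4, and 3 to 6 for the oxaliplatin samples. Scaled to nuclear genes Mapk14, Adrb1 and Camk2g did not pass (limma adjusted p = 0.0618, 0.0825 and 0.211), and with the erythroid score as a covariate Nampt, Adrb1 and Camk2g did not (0.232, 0.151 and 0.122). Over the 24 alternatives Mapk14 passed in 23, Nampt in 20, Adrb1 in 14 and Camk2g in 12, with highest adjusted p of 0.0618, 0.232, 0.151 and 0.211.

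**Figure D5:**
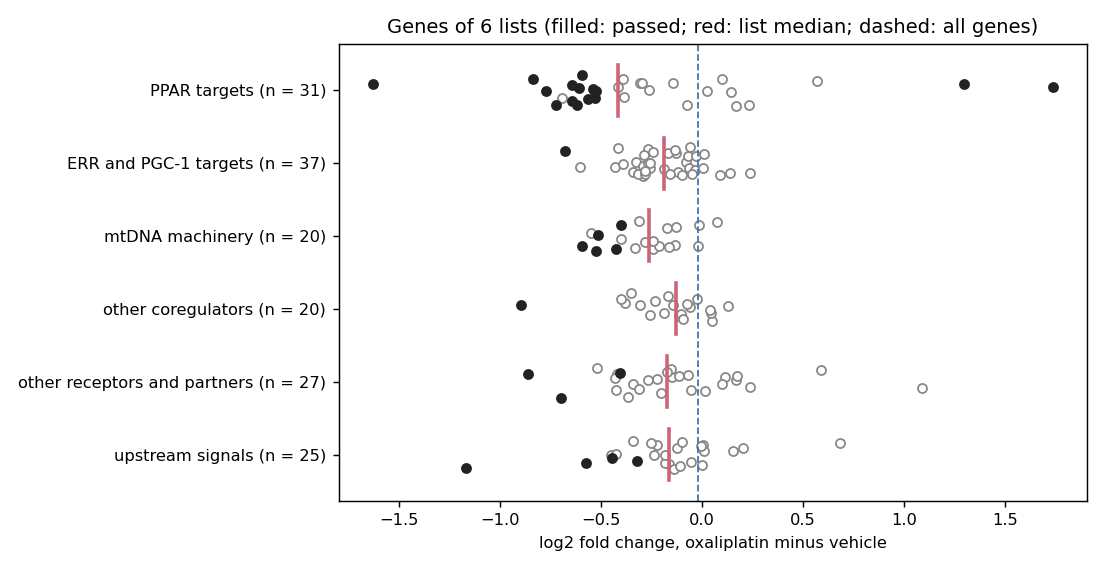
Log2 fold changes, oxaliplatin minus vehicle, of the genes in 6 lists around the members, where filled points passed the limma test, red bars are list medians and the dashed line is the median of all genes. The list of PPAR targets, in which the fatty acid oxidation genes were placed, reaches the lowest median, -0.42. The other lists lie between -0.26 and -0.13.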

How the data were processed

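Gene expression was read from 1 deposited table of signal values, which are normalized gene counts per the file headers. The submitters' processing notes list STAR 2.5.1a, Partek and DESeq2 and assign them no step. For genome build, gene models and strand handling, nothing is given in the sources used here. Groups were taken from the titles. Low values lay on a step of fixed size per sample, from which reads were estimated. Among values from 1 to 300, 68.7% to 74.9% of each sample came out whole, to 0.02 of a read, so whole reads were not recovered and no count test was used. The highest value of any gene was at least 40.6.

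The comparison used limma 3.58.1 (R 4.3.3) with moderation set to trend and robust. Values were log2(normalized count + 1), which understates changes of low genes. Genes entered if their mean over the 9 samples was 10 or more (13788), among them 10 of the 10 members. Tests were two-sided. Intervals are from limma, for single genes. A marker score is the mean over a list of log2 values centred per gene. The steps were tested on simulated data. Members, lists and alternatives were chosen with earlier results of these data known. Named were all members, up to 4 passing genes of smallest p per list, or 2 where none passed, and 3 genes most like Ppargc1a, Ppargc1b and Perm1, without predicted genes. Other genes were named after their values were seen. Klf5, of the receptor list, was not analysed here. Alternatives covered pseudocount, filter, scaling, limma settings, weights, replicate block, marker covariates and leaving out samples. Exon lengths and overlaps come from the basic GENCODE M21 annotation.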

Additional observations from a re-analysis of the deposited data

Results flagged for a closer look

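Of 54 sets of a gene and a group checked for a sample far from the others, 2 had one, and chance gives about 1 in 20. Perm1 in vehicle 1, at 8089 normalized counts, lay below the other vehicle samples at 8981 to 9003. Vldlr in vehicle 4, at 4897 normalized counts, lay above the other vehicle samples at 3866 to 3924. Neither was tested further.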

How the results depend on the processing

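Each value was recomputed under 24 alternatives, 9 of which left out 1 sample each. Ppargc1a kept a positive and Ppargc1b a negative log2 fold change in all 24, from 0.35 to 0.67 and from -0.67 to -0.47, and passed in 20 and 22. The number of members that rose was 0 with the erythroid covariate, 0 without the 3 samples of high atrial markers and 0 to 1 leaving out 1 sample. The number that fell was 0 when scaled to nuclear genes, 0 with the erythroid covariate and 1 to 2 leaving out 1 sample. Over all genes, 1966 passed, 970 with the erythroid covariate, 3541 with array weights and 1110 to 2378 leaving out 1 sample (the lowest were 1110 with vehicle 3 left out, 1237 with vehicle 2 and 1301 with oxaliplatin 4). Of these calls 64.7% were higher, 54.4% after quantile normalization and 79% when scaled to nuclear genes. Other members without a call turned sign. Esrrb was at -0.049 after quantile normalization, -0.13 with the erythroid covariate, -0.053 without the 3 samples and -0.16 to 0.13 leaving out 1 sample. Ppara was at 0.033 scaled to nuclear genes, 0.28 with the cardiomyocyte covariate, 0.003 without the 3 samples and -0.14 to 0.02 leaving out 1 sample. Ppard was at 0.10 with array weights, 0.055 with the erythroid covariate and -0.32 to 0.056 leaving out 1 sample. Perm1 was at 0.32 and Tfam at 0.08 with the cardiomyocyte covariate. Counts over lists were added after seeing the data. Genes of upstream signals that fell numbered 1 scaled to nuclear genes, 2 without trend and robust moderation, 8 with array weights, 2 with the erythroid covariate and 1 to 6 leaving out 1 sample. PPAR targets that fell numbered 4 with the erythroid covariate, 5 with the cardiomyocyte covariate, 5 without the 3 samples and 7 to 17 leaving out 1 sample. Genes of the mitochondrial DNA machinery that fell numbered 0 scaled to nuclear genes, 3 without trend and robust moderation, 8 with array weights, 0 with the erythroid covariate, 0 with the cardiomyocyte covariate, 1 without the 3 samples and 1 to 5 leaving out 1 sample. The causes were not tested.

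Samples of both groups share replicate numbers, but same-numbered samples did not deviate together (r = -0.27, -0.06, -0.09 and 0.25 for numbers 1 to 4), and 1 of 8 samples correlated best with its own number. With the replicate block 0 members rose (Ppargc1a 0.43, limma adjusted p = 0.0772), 1 fell, Esrrb was at -0.038 and 1 gene of the mitochondrial DNA machinery fell.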

Other observations

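Pparg, the fat cell receptor of the PPAR family, which was not among the 10 regulators followed, had 173, 251, 284 and 406 normalized counts in vehicle samples 1 to 4 and 1380, 337, 556, 438 and 519 in oxaliplatin samples 1 to 5. Oxaliplatin 2 lay within the vehicle range and the other oxaliplatin samples above it, with oxaliplatin 1 far above the rest (log2 fold change 1.09, limma adjusted p = 0.0936). Pparg passed in 5 of 24 alternatives, among them without oxaliplatin 2 (limma adjusted p = 0.0497), and over the 24 alternatives its adjusted p ran from 0.00234 to 0.31. Fabp4, a fatty acid binding protein of fat and endothelial cells, rose from 17215 ± 3728 to 34649 ± 11531 normalized counts and was also highest in oxaliplatin 1, at 49631 (log2 fold change 0.96, limma adjusted p = 0.0180). Adipoq was lowest in that sample, at 3.59 normalized counts.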
